A study of Danio rerio with 12 samples.

Results

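Of 9 zebrafish genes of the kisspeptin, GnRH and GnIH system, 7 could be read from the arrays: kiss2, kiss1rb, gnrh2, gnrh3, npvf, tac3a and tac3b. They were chosen by symbol, from 18338 genes that have a probe set of their own, and each is represented by 1 probe set. The probe set of kiss1 is assigned to optc as well, so no value could be given to kiss1, and kiss1ra has no probe set in the annotation used. Both genes were therefore not analysed here. In the RefSeq annotation of GRCz12tu the genes lie on chromosome 4 (kiss2), 5 (kiss1rb), 21 (gnrh2), 17 (gnrh3), 19 (npvf), 23 (tac3a) and 6 (tac3b). No coordinates are given because this assembly is not the one for which the array was made.

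The fish were adult males of the wild-type AB strain, 11 months old, and each had spent the night before its test alone in the test tank. Whole brains were taken straight after 30 min of exposure from 3 fish in each of 4 groups, 1 fish per array. Bystanders to interacting conspecifics (BIC) watched a pair of fighting males through a one-way mirror and paid close attention to them. Bystanders attentive to non-interacting conspecifics (BANIC) paid close attention to a pair of males that did not interact. Bystanders inattentive to non-interacting conspecifics (BINIC) had such a pair in view and paid little attention, and isolated fish (ISOL) saw no conspecific. The authors selected these fish from larger treatment groups by their position and body orientation, so the groups stand for behavioral profiles and not for all fish of a treatment. The values are log2 values after RMA, a procedure that subtracts background, equalizes the arrays and summarizes the probes of each probe set. The signal of a probe set depends on its own probes, so levels were compared between fish and never between genes, and the deposited table carries no detection call.

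Kisspeptins are neuropeptides that act through G protein-coupled receptors and, in mammals, drive the neurons that release gonadotropin-releasing hormone (GnRH), the hypothalamic signal for gonadotropin secretion by the pituitary. In zebrafish kiss2 is the kisspeptin gene of the hypothalamus, kiss1 is expressed mainly in the habenula, gnrh3 takes the role of the GnRH that reaches the pituitary, and gnrh2 is expressed in the midbrain. The gene npvf encodes RFamide peptides related to gonadotropin-inhibitory hormone (GnIH), which was first known from birds as an inhibitor of gonadotropin release, and tac3a and tac3b encode precursors of neurokinin B, a tachykinin that mammalian kisspeptin neurons of the arcuate nucleus make as well.

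The array medians lay between 5.54 and 5.59, and over all genes any pair of arrays correlated at 0.988 to 0.994. Marker genes of neurons (9 genes with a mean of 9.39 to 9.50 over the arrays) and of the hypothalamus and preoptic area (15 genes, 5.87 to 6.02) varied little between fish. The mean of 19 photoreceptor genes of eye or pineal took 2 levels. It was at 4.39 to 4.58 in 5 fish (BANIC1, BINIC1, BINIC3, ISOL2 and ISOL3) and at 3.74 to 3.87 in the other 7, which include every BIC fish. The mean of 5 blood genes ranged from 5.85 in ISOL2 to 7.24 in BIC3. The parts that these lists play in the values below were not tested. Some larger shifts seen without the 5 fish of the higher photoreceptor level are given, from groups that then hold 1 to 3 fish. Whole-brain RNA cannot tell fewer cells of a type from less RNA per cell, and most of these peptides are made by small groups of neurons. Nothing in the labels says whether the fish of a group were tested together or processed together.

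None of the 7 genes was differentially expressed (DE) between any of the groups. A call of DE needed a log2 fold change of 1 or more in size with an adjusted p (Benjamini-Hochberg) under 0.05, from limma fits across the 9169 genes whose SD over the 12 arrays lay above the median SD of 0.13. All 7 genes passed this SD filter, which does not use the groups. The largest of 49 differences between groups was that of tac3a between BANIC and BINIC, at 0.28 on the log2 scale, a fold of 1.21. The 95% confidence intervals of the 49 differences reached from -0.54 (npvf, BINIC against ISOL) to 0.59 (npvf, BIC against BANIC). A change of the probe set signal by a factor of 2 therefore lay outside each of these intervals, taken one at a time. The means of kiss2, gnrh2 and gnrh3 lay under 5, the limit used below for dim genes, and no detection call was available. Between the lowest and the highest of the 12 fish the genes differed by 0.47 (kiss2) to 0.77 (npvf) on the log2 scale, folds of 1.39 and 1.71, so no grouping of these fish could have reached the fold change threshold. No member had an adjusted p under 0.05 either, the lowest being 0.609 (kiss1rb, BINIC against ISOL, limma). The share of this variation that lay between the groups was 12.3% for gnrh3, 14.0% for tac3b, 17.9% for npvf, 20.1% for gnrh2, 31.1% for kiss1rb, 39.1% for kiss2 and 49.9% for tac3a, against a median of 28.3% over the genes past the SD filter.

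**Figure D1:**
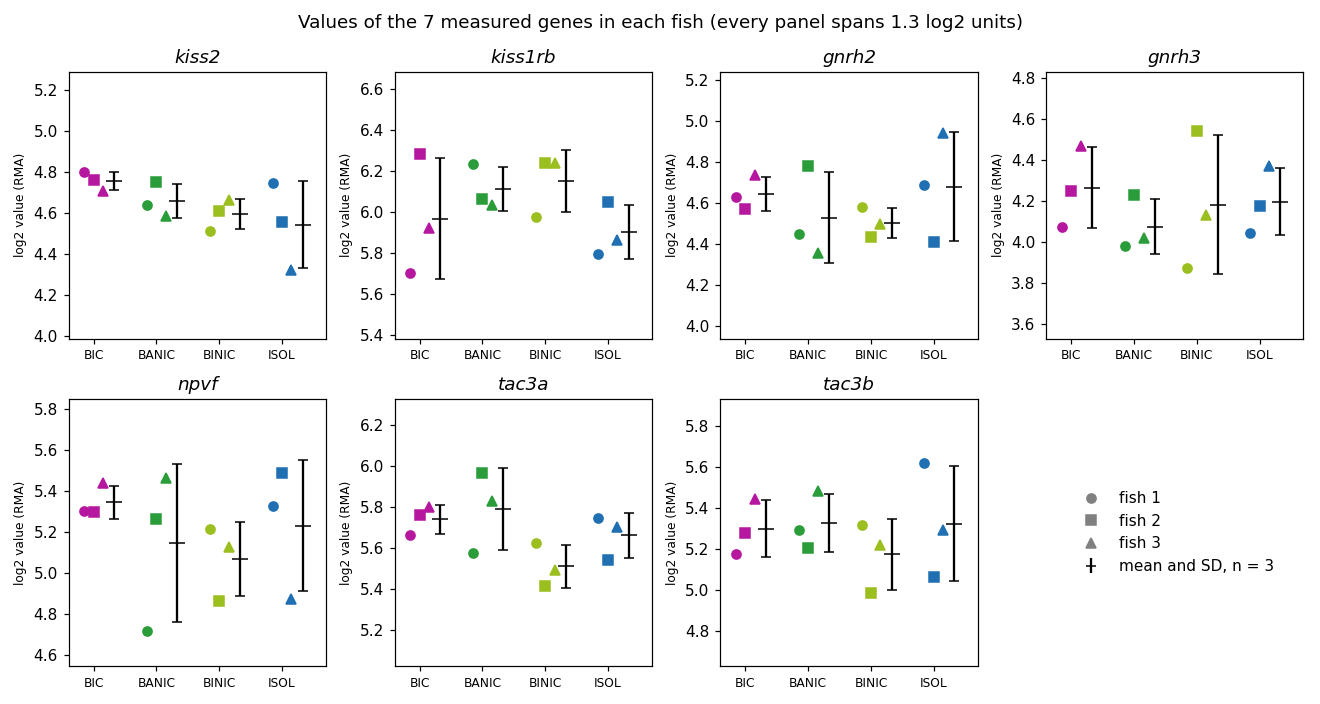
Log2 values (vertical axes, each spanning 1.3 log2 units) of the 7 genes in the 12 fish of the 4 groups (horizontal axes), with the mean and SD of each group of 3 beside its points. The groups overlap in every panel except that for kiss2, npvf and tac3a every BIC fish lies above every BINIC fish.

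kiss2, the ligand, had its highest group mean in the fish that watched a fight, although BIC3 lay below BANIC2 and ISOL1. The BIC fish were at 4.80, 4.76 and 4.71, the BANIC fish at 4.64, 4.75 and 4.59, the BINIC fish at 4.52, 4.61 and 4.66 and the ISOL fish at 4.75, 4.56 and 4.33. The BIC and BINIC fish did not overlap, while ISOL1 was as high as the BIC fish and ISOL3 was the lowest fish of all. The group means were 4.76 ± 0.05 in BIC, 4.66 ± 0.08 in BANIC, 4.60 ± 0.07 in BINIC and 4.54 ± 0.21 in ISOL (SD, n = 3). In this order no neighbours differed beyond the spread of their fish, the widest step being that of 0.10 between BIC and BANIC (95% interval -0.14 to 0.34). The difference between BIC and ISOL was 0.21 (standard error 0.14, 95% interval -0.09 to 0.52, adjusted p = 0.882 from limma). Without the 5 fish of the higher photoreceptor level, which leaves ISOL1 as the one isolated fish, it was 0.01.

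kiss1rb encodes one of the kisspeptin receptors of zebrafish. It was at 5.70, 6.28 and 5.92 in the BIC fish, at 6.23, 6.06 and 6.03 in the BANIC fish, at 5.97, 6.24 and 6.23 in the BINIC fish and at 5.79, 6.04 and 5.86 in the ISOL fish. The BIC fish held both the lowest and the highest value of the 12. The mean was lowest in ISOL (5.90 ± 0.13) and highest in BINIC (6.15 ± 0.15, SD, n = 3), with BIC at 5.97 ± 0.29 and BANIC at 6.11 ± 0.11. The difference between BINIC and ISOL was 0.25 (standard error 0.14, 95% interval -0.05 to 0.55, adjusted p = 0.609 from limma), and that between BANIC and ISOL was 0.21 (adjusted p = 0.854 from limma). In both comparisons ISOL2 lay among the bystanders.

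gnrh2 and gnrh3 encode the GnRH peptides of zebrafish. gnrh2 was at 4.63, 4.57 and 4.74 in the BIC fish, at 4.45, 4.78 and 4.36 in the BANIC fish, at 4.58, 4.44 and 4.50 in the BINIC fish and at 4.69, 4.41 and 4.94 in the ISOL fish. The isolated fish spanned nearly the whole range of the gene, from just above the lowest fish, BANIC3, to the highest, ISOL3. Their mean of 4.68 ± 0.27 compares with 4.65 ± 0.08 in BIC, 4.53 ± 0.22 in BANIC and 4.51 ± 0.07 in BINIC (SD, n = 3). The largest difference of gnrh2 was -0.18 between BINIC and ISOL (standard error 0.15, 95% interval -0.51 to 0.15, adjusted p = 0.727 from limma).

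gnrh3 had the smallest share of its variation between the groups. It was at 4.07, 4.25 and 4.47 in the BIC fish, at 3.98, 4.23 and 4.02 in the BANIC fish, at 3.87, 4.54 and 4.13 in the BINIC fish and at 4.04, 4.17 and 4.37 in the ISOL fish. The lowest and the highest of the 12 fish were both BINIC fish. The means were 4.26 ± 0.20 in BIC, 4.20 ± 0.16 in ISOL, 4.18 ± 0.34 in BINIC and 4.07 ± 0.13 in BANIC (SD, n = 3). The largest difference was 0.19 between BIC and BANIC (standard error 0.13, 95% interval -0.11 to 0.49, adjusted p = 0.9995 from limma).

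npvf, the gene of the GnIH-related peptides, varied most between fish, and its SD was above that of 92.9% of all genes. It was at 5.30, 5.30 and 5.44 in the BIC fish, at 4.72, 5.26 and 5.46 in the BANIC fish, at 5.22, 4.87 and 5.13 in the BINIC fish and at 5.33, 5.49 and 4.88 in the ISOL fish. Single low fish stood in 3 groups, BANIC1, BINIC2 and ISOL3, while the BIC fish lay close together. The means were 5.35 ± 0.08 in BIC, 5.23 ± 0.32 in ISOL, 5.15 ± 0.39 in BANIC and 5.07 ± 0.18 in BINIC (SD, n = 3). The difference between BIC and BINIC was 0.28 (standard error 0.13, 95% interval -0.01 to 0.56, adjusted p = 0.664 from limma), with no overlap between the groups. Without the 5 fish of the higher photoreceptor level, which leaves BINIC2 alone in its group, it was 0.48, and without BINIC2 it was 0.17. The difference between BANIC and BINIC was 0.08, and 0.50 without those 5 fish, from BANIC2, BANIC3 and BINIC2. That between BINIC and ISOL was -0.16 (adjusted p = 0.773 from limma) and that between BIC and ISOL 0.11 (adjusted p = 0.933).

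tac3a and tac3b encode the neurokinin B precursors. tac3a was at 5.66, 5.76 and 5.80 in the BIC fish, at 5.57, 5.97 and 5.83 in the BANIC fish, at 5.62, 5.42 and 5.49 in the BINIC fish and at 5.75, 5.54 and 5.70 in the ISOL fish. Of the 6 attentive fish only BANIC1 lay below the highest BINIC fish. The means were 5.79 ± 0.20 in BANIC, 5.74 ± 0.07 in BIC, 5.66 ± 0.11 in ISOL and 5.51 ± 0.10 in BINIC (SD, n = 3). BANIC and BINIC had the same kind of stimulus in view. Between them the difference was 0.28 (standard error 0.13, 95% interval -0.01 to 0.57, adjusted p = 0.684 from limma). Without the 5 fish of the higher photoreceptor level it was 0.48, from 2 BANIC fish and BINIC2. Between BIC and BINIC it was 0.23 (standard error 0.12, 95% interval -0.03 to 0.50, adjusted p = 0.668 from limma). The 6 attentive fish were higher than the 6 others by 0.18 (standard error 0.09, 95% interval -0.01 to 0.37, adjusted p = 0.804 from limma). The means of some marker lists differed between the BIC and BINIC fish as well, and their part in tac3a was not tested. That of 7 radial glia genes was 8.27 to 8.37 in BIC and 8.04 to 8.27 in BINIC, with BINIC1 just above BIC1. That of the photoreceptor genes was at the higher level in 2 of the 3 BINIC fish and in no BIC fish. For 5 oligodendrocyte genes the group mean was 8.62 in both. The mean of 9 neuron genes was 9.4388 to 9.4959 in BIC and 9.3856 to 9.4376 in BINIC. That of 10 pituitary genes was 4.1754 to 4.2628 in BIC and 4.1492 to 4.1735 in BINIC. In both lists the groups did not overlap, but only barely, with the closest fish nearly level. Of single genes tested, 15.0% did not overlap between BIC and BINIC. The mean of 5 blood genes was 6.81 in BIC (6.27 to 7.24) and 6.43 in BINIC (6.34 to 6.62), with overlap.

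tac3b was at 5.18, 5.28 and 5.45 in the BIC fish, at 5.29, 5.21 and 5.48 in the BANIC fish, at 5.32, 4.99 and 5.22 in the BINIC fish and at 5.62, 5.06 and 5.29 in the ISOL fish. ISOL1 was the highest of the 12 fish and BINIC2 the lowest. The means were 5.33 ± 0.14 in BANIC, 5.32 ± 0.28 in ISOL, 5.30 ± 0.14 in BIC and 5.17 ± 0.17 in BINIC (SD, n = 3), and the first 3 of these lay within 0.03 of each other. The largest difference of tac3b was 0.15 between BANIC and BINIC (standard error 0.13, 95% interval -0.14 to 0.45, adjusted p = 0.811 from limma).

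The comparisons against the isolated fish hold the sight of conspecifics and, for BIC and BANIC, the selection for close attention as well. In them 0 of the 7 genes were DE in each group. The calls made up 0.0763% of all genes tested for BIC, 0.109% for BANIC and 0.0218% for BINIC. The number with an unadjusted P under 0.05 from limma was again 0 in each comparison, against 5.67%, 5.95% and 8.76% of the genes tested. None of the 7 genes separated a group from ISOL without overlap, which 11.5% of the genes tested did in BIC, 11.8% in BANIC and 15.7% in BINIC. In BIC 5 genes had a positive and 2 a negative log2 fold change (median 0.07, all genes -0.01), in BANIC 4 and 3 (median 0.00, all genes -0.01) and in BINIC 2 and 5 (median -0.15, all genes 0.01). In BINIC gnrh2, gnrh3, npvf, tac3a and tac3b were on the negative side, from -0.01 (gnrh3) to -0.18 (gnrh2), each within its confidence interval of 0. These comparisons share the ISOL fish, so a high or low isolated fish enters each of them. With 7 genes, a background of 5.67% to 8.76% is less than 1 gene, and the counts of 0 do not set these genes apart from the rest.

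The remaining comparisons set attention and stimulus against each other. Attentive against other fish (0.0654% of all genes tested called), BANIC against BINIC (0.0109%), BIC against BANIC (0.0218%) and a test of any difference among the 4 groups (0.207%) also gave 0 DE genes among the 7, and 0 at an unadjusted P under 0.05 from limma, where 6.17%, 7.55%, 3.58% and 7.13% of the genes tested passed. Over the 4 groups tac3a had the smallest P of the 7 (adjusted p = 0.741 from limma). No member separated BANIC from BINIC or BIC from BANIC without overlap, against 14.6% and 9.26% of the genes tested. BIC against BINIC, where both attention and stimulus differ, was added after the values had been seen. It gave 0 DE genes among the 7 (0.109% of all genes tested) and 0 at an unadjusted P under 0.05 (7.73%). Here kiss2, npvf and tac3a, 3 of the 7 or 42.9%, did not overlap between the groups, against 15.0% of the genes tested, and the smallest adjusted p of the 3 was 0.664 from limma. The difference of kiss2 was 0.16 (standard error 0.12, adjusted p = 0.750 from limma).

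**Figure D2:**
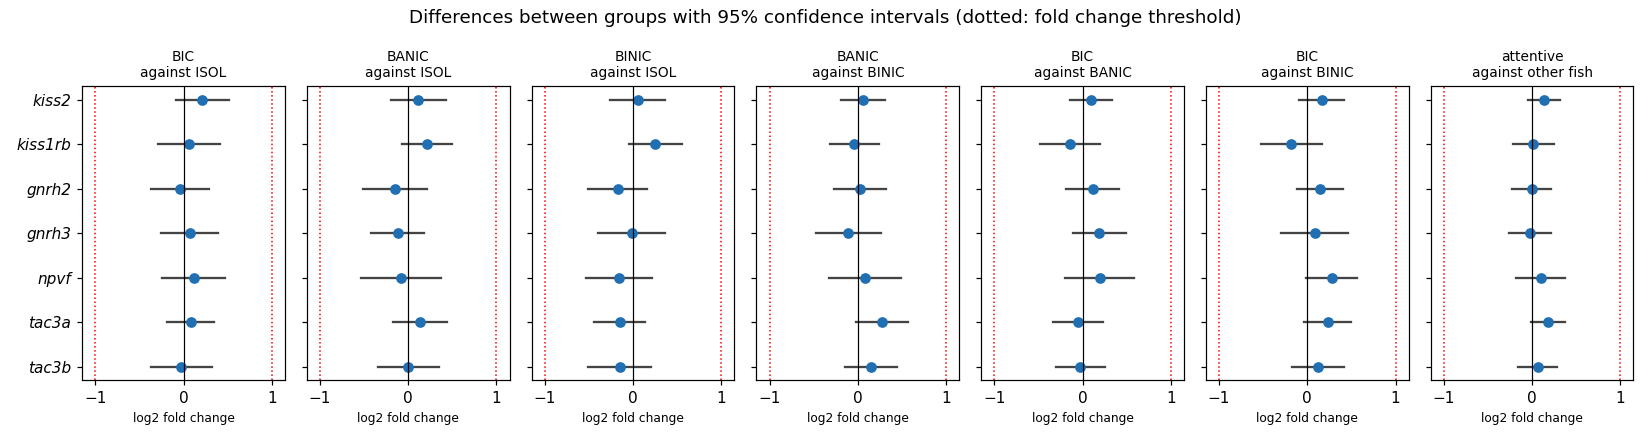
Log2 fold change (horizontal axes) of each of the 7 genes in 7 comparisons, as points with 95% confidence intervals from limma, and the fold change threshold of 1 as dotted lines. Every interval holds 0, and none reaches beyond -0.54 or 0.59.

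Around these genes the axis holds their receptors, related RFamide and tachykinin peptides, pituitary gonadotropin subunits, steroid and leptin receptors, and genes that guide the development of GnRH neurons. Of this list 45 genes were measured and 21 passed the SD filter. None was DE in any comparison, and 4 of the 21 had an unadjusted P under 0.05 from limma against ISOL or among the 4 groups, 19.0% against 16.8% of all genes tested, so the list did not stand apart in this count. Against ISOL the median log2 fold change of the 45 genes was within 0.01 of 0 in each group, as was that of all genes. Between the 5th and the 95th percentile of all genes lay 44 of the 45 in BIC, 42 in BANIC and 39 in BINIC.

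esr2a encodes an estrogen receptor of the beta type, through which estradiol can act on the brain. It was at 5.86, 6.02 and 6.35 in the BIC fish, at 6.24, 5.75 and 5.88 in the BANIC fish, at 6.14, 5.90 and 6.04 in the BINIC fish and at 5.43, 5.58 and 5.83 in the ISOL fish. Every BIC and BINIC fish lay above the isolated fish, and BANIC2 lay among them. esr2a, qrfp, prokr1a and nhlh2 are named because of an unadjusted P under 0.05 from limma against ISOL or among the groups. Their lack of overlap with ISOL is therefore not a separate finding. Of all genes tested, 11.5% did not overlap with ISOL in BIC, 11.8% in BANIC and 15.7% in BINIC. The BIC fish differed from ISOL by 0.46 on the log2 scale (standard error 0.16, adjusted p = 0.834 from limma), and the BINIC fish by 0.41 (standard error 0.14, adjusted p = 0.484). For BANIC the difference was 0.34 (adjusted p = 0.835 from limma).

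qrfp encodes an RFamide peptide known from feeding and arousal. It was at 5.24, 5.12 and 5.18 in the BINIC fish and at 5.42, 5.55 and 5.63 in the ISOL fish, a difference of -0.36 with no overlap (adjusted p = 0.496 from limma). prokr1a, a prokineticin receptor gene, was at 4.62, 4.71 and 4.72 in the BANIC fish and at 5.19, 4.80 and 5.06 in the ISOL fish. The difference, with no overlap, was -0.34 (adjusted p = 0.811 from limma). The BINIC fish, at 4.76, 4.64 and 4.75, also lay below every ISOL fish, by -0.30 (adjusted p = 0.572 from limma). For BIC the difference was -0.15 (adjusted p = 0.896 from limma). As for esr2a, the lack of overlap in qrfp and prokr1a goes with their selection by P. nhlh2 encodes a transcription factor without which mice are hypogonadal. It had a log2 fold change of -0.33 in BINIC (adjusted p = 0.566 from limma), where BINIC2 was at 4.69 and the other two at 5.12 and 5.05, against 5.21 to 5.36 in ISOL.

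**Figure D3:**
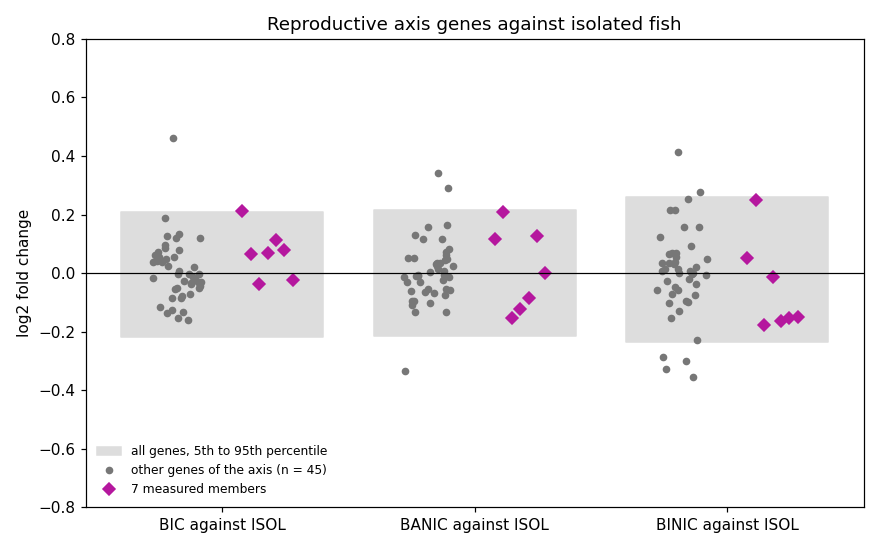
Log2 fold change against ISOL (vertical axis) in BIC, BANIC and BINIC for the 7 measured members (diamonds) and 45 other genes of the axis (circles), with the range from the 5th to the 95th percentile of all genes in grey. The highest circle in each comparison is esr2a, and the diamonds lie between -0.18 and 0.25.

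Across the 12 fish the 7 genes had correlations of either sign, none of which passed the adjustment. Of their 21 pairs 11 had a Pearson correlation above 0, the median r was 0.02, and the range was from -0.53 (kiss1rb with gnrh2) to 0.56 (tac3a with tac3b). The latter had a Spearman rho of 0.53, and the permutation p was 0.0573 for r and 0.0783 for rho (2-sided, 100000 resamples, n = 12). Adjusted over the 21 pairs by Benjamini-Hochberg they were 0.647 and 0.644, the smallest of all pairs. Without the 2 fish in which tac3a lay farthest from its median r was 0.70, and with the group means removed it was 0.49. kiss1rb and gnrh2 gave a rho of -0.50 (permutation p = 0.0805 for r and 0.105 for rho, adjusted 0.647 and 0.644) and an r of -0.58 without 2 fish. gnrh2 and tac3a gave an r of 0.50 (rho 0.45, permutation p = 0.1003 for r and 0.146 for rho, adjusted 0.647 and 0.644), which was 0.90 without 2 fish and 0.63 with the group means removed. In 6 of the 21 pairs r changed sign without 2 fish, as for kiss2 and gnrh2, from -0.14 to 0.66.

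**Figure D4:**
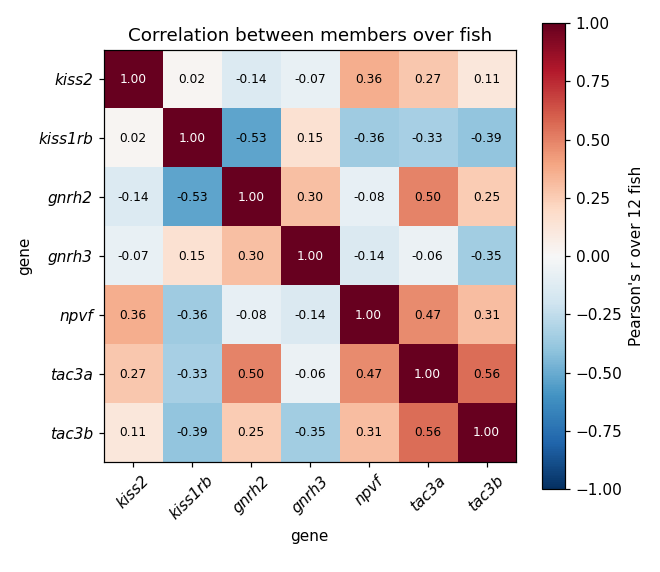
Pearson's r between each pair of the 7 genes over the 12 fish, from -1 (blue) to 1 (red), with the gene names on both axes. The highest value off the diagonal is that of tac3a with tac3b and the lowest that of kiss1rb with gnrh2.

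Among the genes past the SD filter, the 3 most like each member by Pearson's r over the 12 fish were no other member. For tac3a they were sfxn5a (r 0.96, Spearman rho 0.97), her4.1 (0.89, rho 0.92) and ifi27.3 (0.89, rho 0.93). her4.1, a Notch target expressed in radial glia, is one of the 7 radial glia markers measured. For kiss2 they were ndufb2 (0.89), gli2b (0.85) and fbxl3b (0.85), and for kiss1rb mapkapk5 (0.95), kcnj5 (0.90) and si:ch211-153f2.3 (0.89). For gnrh2 they were acaa1 (0.93), mfsd12a (0.84) and LOC560627 (0.82), and for gnrh3 rab38c (0.87), a gene named after a BAC clone (0.83) and mapk8b (0.82). For npvf they were rxfp3.3a3 (0.87, rho 0.84), ftr95 (0.82, rho only 0.48) and cldn11b (0.80, rho 0.68). For tac3b they were knstrn (0.87, rho 0.85), crip3 (0.87, rho 0.84) and her2 (0.85, rho 0.71). These are the highest of the correlations with all genes past the filter, over the same 12 arrays, and are given as a description.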

How the data were processed

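The authors processed the arrays with oligo and normalized them together by RMA (versions not given in the sources used here), and the deposited values are log2 values, 1 for each of 23467 probe sets and each array. Of 20871 probe sets in the platform annotation, 19790 are assigned to 1 gene and 1081 to several. The latter were left out. Symbols were updated through the Entrez ID, and 18243 of 18338 genes matched RefSeq (GRCz12tu). Where a gene had several probe sets, the one with the highest mean represented it. Tests were run in limma 3.58.1 (R 4.3.3), each fit holding only the arrays it compares, with Benjamini-Hochberg adjustment over the 9169 genes past the SD filter, as in the methods of the study. Attentive (BIC and BANIC) against other fish and the 4-group F test used the 12 arrays. The members and gene lists were chosen with earlier results of these data known. Text names every member, the other axis genes with an unadjusted P under 0.05 against ISOL or among the groups, and the 3 genes most like each member. The fits were tested on simulated data. Replicates are separate fish, and 3 per group limit the precision. Alternatives were the SD filter, a filter on dim genes (mean under 5), probe set choice, prior, array weights, centring, a replicate block, a fit of all groups and leaving out fish. Sequences of the genes were not used here.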

Additional observations from a re-analysis of the deposited data

Results flagged for a closer look

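npvf, the gene of the GnIH-related peptides, lay on opposite sides of the ISOL mean in BIC and BINIC. The share of all genes that did so was not counted. With an ISOL mean of 5.23, the 3 BIC fish were all above it and the 3 BINIC fish all below it. The difference between BIC and BINIC was 0.28 (adjusted p = 0.664 from limma) and was not called. Under the alternatives it ran from 0.17, without BINIC2, to 0.48, without the 5 fish of the higher photoreceptor level (adjusted p 0.434 to 0.848). The isolated fish ran from 4.88 to 5.49, and all but the lowest BINIC fish lay within that range. The position of BIC above the ISOL mean rested on ISOL3, the lowest isolated fish. BIC1 and BIC2 lay below ISOL1 and ISOL2, and without ISOL3 the difference between BIC and ISOL changed from 0.11 to -0.06.

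tac3a, a neurokinin B precursor, showed the same division around an ISOL mean of 5.66, which the lowest BIC fish exceeded by less than 0.01. The difference between BIC and BINIC was 0.23 (adjusted p = 0.668 from limma), and 0.18 to 0.32 under the alternatives (adjusted p 0.448 to 0.848).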

How the results depend on the processing

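The number of DE genes among the 7 was 0 in all 131 combinations of comparison and alternative run, which the fold change threshold alone ensures for comparisons between groups, since no gene ranged by as much as 1 over the fish. The lowest adjusted p of a member was 0.416 (tac3a, BANIC against BINIC, with dim genes removed). That filter left 4 of the 7 members, without kiss2, gnrh2 and gnrh3. At an unadjusted P under 0.05 members appeared in some settings. With no SD filter they were kiss1rb in BINIC against ISOL (adjusted p = 0.534 from limma), tac3a in attentive against other fish and in BANIC against BINIC, and npvf and tac3a in BIC against BINIC. They were not confined to that setting. kiss1rb in BINIC against ISOL also passed without BINIC1 and without ISOL2, and kiss2 in BIC against ISOL passed without ISOL1. Further settings also gave tac3a in attentive against other fish and in BANIC against BINIC, and npvf in BIC against BINIC. Of 756 differences under alternatives 56 changed sign, 42 of them with 1 fish left out. All 56 were at most 0.20 in size before the alternative was applied. The SD filter, dim filter, probe set choice, prior, replicate block and fit of all groups cannot move a difference of these genes. Such values are among the 756, so the share of 56 does not measure how stable the signs are. Left out one at a time, the fish moved tac3a in BANIC against BINIC between 0.19 and 0.39. Without the 5 fish of the higher photoreceptor level, an alternative added after seeing the data, BINIC and ISOL are left with 1 fish each. There tac3b was at -0.63 and gnrh3 at 0.50 in BINIC against ISOL (main values -0.15 and -0.01), each a difference between BINIC2 and ISOL1 with no replicate. The 4 named genes of the wider axis were called in none of 516 values under alternatives (lowest adjusted p 0.300 from limma, prokr1a). For the 437 differences the fold change threshold alone ensures it, since none of the 4 genes ranged by as much as 1 over the fish. With dim genes removed prokr1a was not tested.

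The titles number the fish of each group from 1 to 3. Deviations from the group means correlated above 0.1 in 1 of 18 pairs of equal number and in 4 of 36 pairs of unequal number. The highest value was 0.19, in a pair of equal number (BIC1 with ISOL1). Whether fish of equal number were tested or processed together is not in the labels, and these correlations cannot decide it. Each group holds 1 fish of each number, so a replicate block cannot move a difference between groups, only its standard error and p. With the block 0 members were called, and tac3a in BANIC against BINIC, 0.28 as before, had an adjusted p of 0.768 from limma. Over all genes tested the block moved the calls from 7 to 11 in BIC and from 10 to 13 in BANIC against ISOL, from 1 to 2 in BANIC against BINIC, from 10 to 12 in BIC against BINIC and from 19 to 18 among the 4 groups.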
